A study of Mus musculus with 6 samples.

Results

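The genes of TGF-beta, activin and BMP signalling were examined in whole kidneys of Vhl knockout and wild-type mice. The 37 genes were chosen by name, from ligands to SMADs, and each was matched by its Entrez Gene ID to 1 of the 25206 rows of the array data, so that all 37 were measured. Vhl encodes the part of a ubiquitin ligase that marks the hypoxia-inducible factors for breakdown. The 3 Vhl knockout kidneys came from mice with the floxed Vhl allele and the Hoxb7-Cre-GFP transgene, and the 3 wild-type kidneys from mice labelled with the floxed Vhl allele alone. All mice were male, C57BL/6 and 3 months old, and none had further treatment. The labels name no Cre for the wild-type mice of the arrays, while the methods give the Hoxb7-Cre-GFP transgene to the wild-type mice from which tubule cells were cultured. If the wild-type kidneys on the arrays lacked it, the loss of Vhl and the presence of the transgene cannot be told apart. The Hoxb7 promoter is known to be active in the ureteric bud and the collecting ducts that come from it. The extract held all other cells of the kidney, which would keep Vhl where the Cre was not active. The study reported loss of VHL protein in tubule cells cultured from such mice, which its methods call proximal. How far Vhl was lost outside the collecting ducts cannot be read from these arrays. Each sample was hybridised to 1 Affymetrix Mouse Gene 2.0 ST array, and values are given as log2 signals, on which a difference of 1 is a doubling.

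TGF-beta, activins and bone morphogenetic proteins (BMPs) are secreted dimers of 1 large family. They bring together type I and type II receptor kinases on the cell surface, and the type I receptor phosphorylates SMAD proteins, which enter the nucleus with SMAD4. TGF-beta is stored in the matrix in a latent form, bound to latent TGF-beta binding proteins, and is known in the kidney as a driver of fibrosis. BMP7 is known to oppose it in tubules, and secreted antagonists such as gremlin and follistatin hold BMPs and activins away from their receptors.

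The array medians lay between 5.02 and 5.05, and each array correlated better with its own genotype (mean r 0.992 to 0.994) than with the other (0.987 to 0.991). Vhl, the targeted gene, read 6.08, 6.18 and 6.10 in Vhl knockout kidneys and 6.11, 6.13 and 6.03 in wild-type kidneys. The exons behind this row are unknown here, and so its level cannot test whether the allele was lost. All 8 proximal tubule markers, all 6 markers of the loop of Henle and distal tubule and all 10 collecting duct markers read above the array median on all 6 arrays. The mean signal of 8 adipocyte markers stood apart in 2 Vhl knockout kidneys. It was 7.0, 4.69 and 6.12 in Vhl knockout replicates 1, 2 and 3 and 4.89, 4.73 and 4.50 in wild-type replicates 1, 2 and 3. Results below are therefore also given for replicate 2 of the knockout alone, whose mean adipocyte signal lay within the wild-type range. Of the 8 markers singly, Lep (3.87 against at most 3.62) and Retn (4.76 against at most 4.75) still read above every wild-type array on that knockout array.

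In Vhl knockout kidneys, 6 of the 37 genes rose and none fell. These were the BMP antagonist Grem1, the matrix proteins Tgfbi and Ccn2 (Ctgf in older annotation), the follistatin family glycoprotein Fstl1 and the ligands Tgfb1 and Tgfb2. The test was limma, fitted to all 25206 rows, and a gene passed at an adjusted p under 0.05 (Benjamini-Hochberg, every row counted). The 6 genes make 16.2% of the 37. Of all rows 2.77% passed, 2.24% higher and 0.524% lower. At an unadjusted p under 0.05, 16 of the 37 (43.2%) were higher and 1 was lower, against 8.67% and 8.38% of all rows. Without a threshold, 31 of the 37 (83.8%) had a positive log2 fold change, against 42.7% of all rows. The median log2 fold change was 0.18 over the 37 genes and -0.03 over all rows. In 19 of the 37 genes (51.4%) every Vhl knockout array read above every wild-type array, as in 11.2% of all rows, and in 1 gene every Vhl knockout array read below, as in 12.7% of all rows. In whole tissue, more cells of a type and more RNA per cell cannot be told apart.

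**Figure D1:**
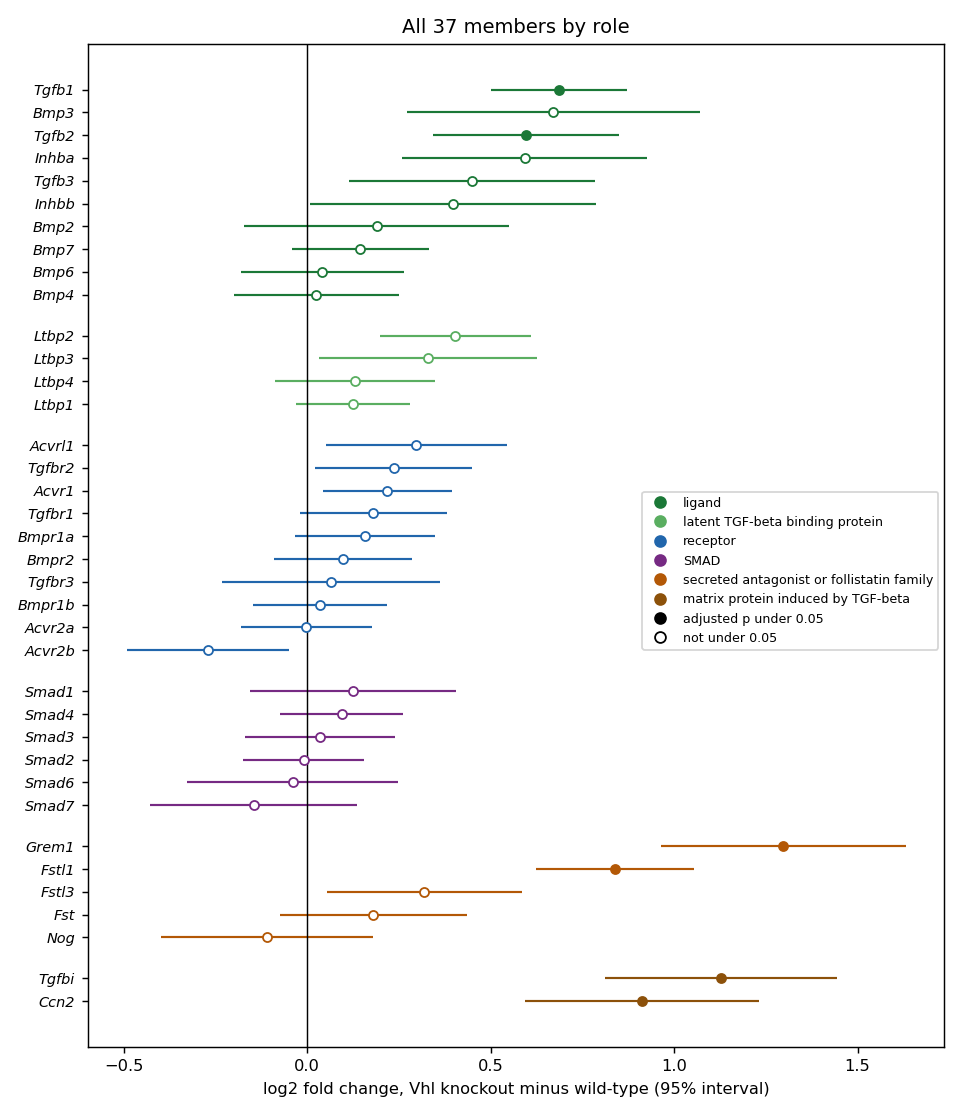
Log2 fold change of each of the 37 genes, Vhl knockout minus wild-type (x axis), with its 95% interval from limma, grouped and coloured by role. Filled points had an adjusted p under 0.05 and open points did not. The 6 filled points lie between 0.60 for Tgfb2 and 1.30 for Grem1, and the 6 SMADs lie between -0.15 and 0.12.

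Of the 10 ligands, 2 rose, none fell and 8 did not pass the test, and all 10 had a positive log2 fold change. Tgfb1 (Entrez 21803), the isoform that is best known from fibrosis, read 7.47, 7.39 and 7.29 in Vhl knockout kidneys and 6.68, 6.65 and 6.75 in wild-type kidneys. The genotypes were set apart by a gap of 0.53. Tgfb1 averaged 7.38 ± 0.09 in Vhl knockout and 6.70 ± 0.05 in wild-type kidneys (SD, n = 3 each). The log2 fold change was 0.69 with SE 0.079, which is 1.61-fold (95% interval 1.41 to 1.83, limma adjusted p = 0.00762). Tgfb2 (Entrez 21808) read 5.06, 5.29 and 5.26 in Vhl knockout kidneys and 4.50, 4.78 and 4.54 in wild-type kidneys, again without overlap. The log2 fold change was 0.60 with SE 0.108, which is 1.51-fold (interval 1.27 to 1.80, adjusted p = 0.0359). This call was the least stable of the 6, since leaving out any array but wild-type replicate 2 ended it. The adjusted p was 0.127 and 0.117 without wild-type replicates 1 and 3, and 0.0533, 0.102 and 0.109 without Vhl knockout replicates 1, 2 and 3.

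The third isoform, Tgfb3, did not pass. It read 4.47, 4.19 and 4.65 in Vhl knockout kidneys and 3.95, 3.82 and 4.19 in wild-type kidneys, where knockout replicate 2 and wild-type replicate 3 were nearly equal. Its log2 fold change was 0.45 with a 95% interval from 0.11 to 0.78 (adjusted p = 0.174), so a change as large as that of Tgfb2 lay within the interval.

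Among ligands outside the TGF-beta isoforms, Bmp3 and Inhba had the largest differences, and neither passed. Bmp3 is an unusual member that opposes other BMPs in bone. It read 5.81, 5.46 and 5.39 in Vhl knockout kidneys and 5.01, 4.55 and 5.09 in wild-type kidneys, a log2 fold change of 0.67 (SE 0.170, adjusted p = 0.0986). Inhba, the chain of activin A, read 4.21, 4.35 and 4.56 in Vhl knockout kidneys and 3.52, 3.85 and 3.98 in wild-type kidneys, with 0.59 (SE 0.142, adjusted p = 0.0839). The arrays of the genotypes did not overlap in either gene. Inhbb, the chain of activin B, had 0.40 (adjusted p = 0.284). The other BMP ligands had smaller differences. Bmp7, the BMP of nephron formation, read 8.69, 8.80 and 8.72 in Vhl knockout kidneys and 8.54, 8.69 and 8.53 in wild-type kidneys, a log2 fold change of 0.15 with a 95% interval from -0.04 to 0.33. Bmp4 and Bmp6 had log2 fold changes of 0.03 (interval -0.20 to 0.25) and 0.04 (interval -0.18 to 0.26), and Bmp2 had 0.19 (interval -0.17 to 0.55). The signals of Bmp2, Tgfb3, Inhba and the antagonist Nog lay under the array median on every array, which limits what these rows can show.

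None of the 4 latent TGF-beta binding proteins passed the test, although all had a positive log2 fold change. Ltbp2, which sits on elastic microfibrils, came nearest. It read 5.20, 5.26 and 5.09 in Vhl knockout kidneys and 4.70, 4.90 and 4.73 in wild-type kidneys, without overlap (log2 fold change 0.40, SE 0.0878, adjusted p = 0.0643). Ltbp3 read 6.74, 6.30 and 6.63 in Vhl knockout kidneys and 6.25, 6.11 and 6.33 in wild-type kidneys, where replicate 2 of the knockout fell inside the wild-type range (log2 fold change 0.33, adjusted p = 0.248). Ltbp4 and Ltbp1 had 0.13 and 0.12.

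None of the 10 receptor genes passed the test. The log2 fold changes ran from -0.27 for Acvr2b to 0.30 for Acvrl1, with a median of 0.13, and all 10 genes read above the array median on all arrays. Acvrl1, a type I receptor of endothelial cells, read 6.77, 6.71 and 6.88 in Vhl knockout kidneys and 6.57, 6.61 and 6.30 in wild-type kidneys (SE 0.105, adjusted p = 0.210). Of 10 endothelial markers 1 rose, and their mean was 8.04 to 8.29 in Vhl knockout kidneys and 7.86 to 7.90 in wild-type kidneys. The part of endothelial cells in the values of Acvrl1 was not tested. In 5 of the 10 receptor genes (50%) every knockout array read above every wild-type array, as in 11.2% of all rows. These were Acvrl1, Acvr1, Tgfbr2, Tgfbr1 and Bmpr1a. Acvr2b, a type II receptor for activins, was the gene in which every knockout array read lower. It had 5.48, 5.62 and 5.46 in Vhl knockout kidneys and 5.65, 5.83 and 5.89 in wild-type kidneys (SE 0.0941, adjusted p = 0.207). Tgfbr2 and Tgfbr1, the receptor pair of TGF-beta itself, had 0.24 (95% interval 0.02 to 0.45, adjusted p = 0.248) and 0.18 (interval -0.02 to 0.38, adjusted p = 0.338). The type I receptors Acvr1, Bmpr1a and Bmpr1b had 0.22, 0.16 and 0.04. The type II receptors Bmpr2 and Acvr2a had 0.10 and -0.0016, and the co-receptor Tgfbr3 had 0.07.

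The SMAD genes had the smallest median difference of the 6 roles. None of the 6 genes passed, none reached an unadjusted p under 0.05, and their median log2 fold change was 0.01. Smad3 and Smad2, which carry the signal of TGF-beta and activin, had 0.04 (95% interval -0.17 to 0.24) and -0.01 (interval -0.17 to 0.16). Smad4, the shared partner, had 0.09 (interval -0.07 to 0.26). Smad1, which carries the BMP signal, read 6.59, 6.22 and 6.21 in Vhl knockout kidneys and 6.19, 6.31 and 6.14 in wild-type kidneys, so that only knockout replicate 1 lay above the wild-type range (log2 fold change 0.12, adjusted p = 0.652). Without that array the log2 fold change of Smad1 was -0.0007, and with the adipocyte covariate it was -0.05. The inhibitory Smad7, itself induced by TGF-beta in many cells, read 6.61, 6.40 and 6.26 in Vhl knockout kidneys and 6.73, 6.56 and 6.41 in wild-type kidneys. Its log2 fold change was -0.15 with an interval from -0.43 to 0.14 (adjusted p = 0.596). Smad6, the inhibitor of BMP signals, had -0.04 (interval -0.33 to 0.25). These arrays measure mRNA and not the phosphorylation that activates SMADs.

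Of the 5 secreted antagonists and follistatin family genes, 2 rose and 3 did not pass the test. Grem1 (Entrez 23892), gremlin, binds BMP2, BMP4 and BMP7, and had the largest difference of the 37 genes. It read 6.27, 5.97 and 6.06 in Vhl knockout kidneys and 4.89, 4.52 and 5.0 in wild-type kidneys. All knockout arrays were higher, by a gap of 0.97. Grem1 averaged 6.10 ± 0.15 in Vhl knockout and 4.80 ± 0.25 in wild-type kidneys (SD, n = 3 each). The log2 fold change was 1.30 with SE 0.142, which is 2.46-fold (95% interval 1.95 to 3.10, limma adjusted p = 0.00672). By log2 fold change it ranked 73 among all 25206 rows. Fstl1 (Entrez 14314), a secreted glycoprotein of mesenchymal cells, read 7.06, 6.94 and 6.93 in Vhl knockout kidneys and 6.01, 6.14 and 6.27 in wild-type kidneys. The genotypes did not overlap. The log2 fold change was 0.84 with SE 0.0917, which is 1.79-fold (interval 1.54 to 2.08, adjusted p = 0.00672).

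The other antagonists did not pass. Fstl3, which binds activins, read 6.81, 6.75 and 7.12 in Vhl knockout kidneys and 6.49, 6.64 and 6.59 in wild-type kidneys (log2 fold change 0.32, adjusted p = 0.214). Follistatin itself, Fst, read 6.51, 6.74 and 6.55 in Vhl knockout kidneys and 6.60, 6.28 and 6.38 in wild-type kidneys, which overlap (log2 fold change 0.18, adjusted p = 0.450). Nog, the BMP antagonist noggin, had -0.11 (adjusted p = 0.701) and was dimmer than the lower quartile on all 6 arrays.

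Both matrix proteins that TGF-beta is known to induce rose. Tgfbi (Entrez 21810), a secreted protein that binds collagens and integrins, read 8.40, 7.98 and 8.08 in Vhl knockout kidneys and 6.83, 7.10 and 7.15 in wild-type kidneys. The genotypes were set apart by a gap of 0.83. Tgfbi averaged 8.15 ± 0.22 in Vhl knockout and 7.03 ± 0.17 in wild-type kidneys (SD, n = 3 each). The log2 fold change was 1.13 with SE 0.134, which is 2.18-fold (95% interval 1.76 to 2.72, limma adjusted p = 0.00857). Ccn2 (Entrez 14219), connective tissue growth factor, read 8.87, 8.46 and 8.43 in Vhl knockout kidneys and 7.74, 7.51 and 7.77 in wild-type kidneys. Its knockout arrays spread more than those of Fstl1 or Tgfb1, with replicate 1 the highest. The log2 fold change was 0.91 with SE 0.136, which is 1.88-fold (interval 1.51 to 2.35, adjusted p = 0.0184). Ccn2 lost the call without each wild-type array (adjusted p = 0.0669, 0.0658 and 0.0570 without wild-type replicates 1, 2 and 3).

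**Figure D2:**
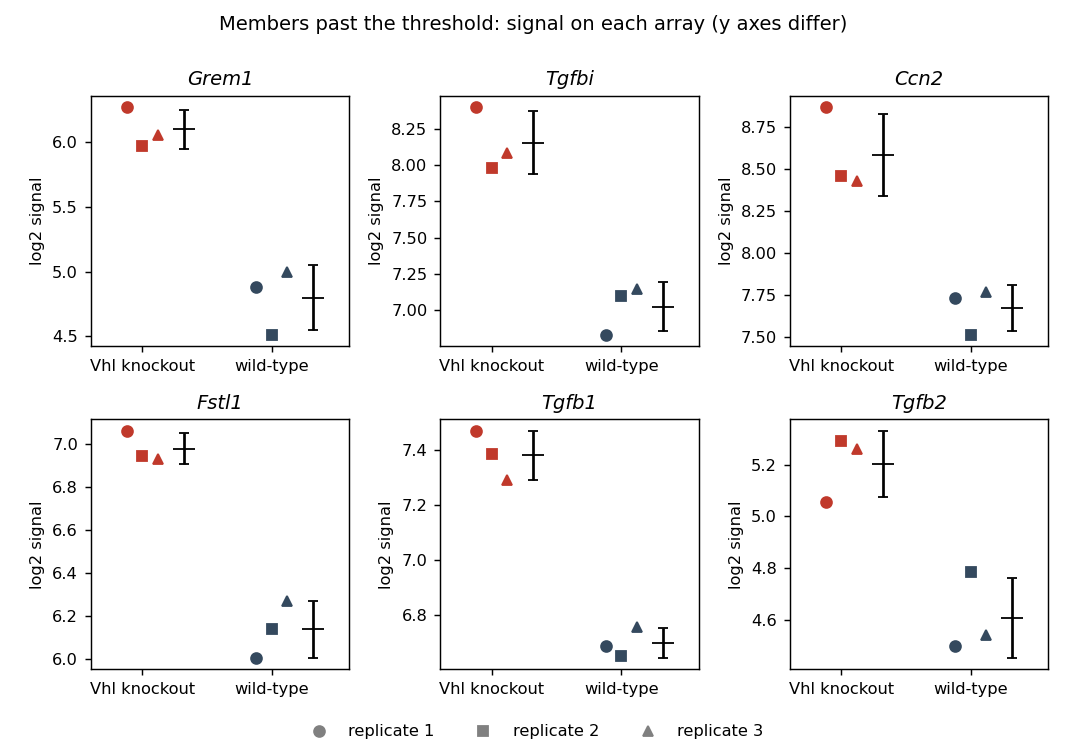
Log2 signal (y axis, scaled for each gene) of the 6 genes that rose, for the 3 Vhl knockout and the 3 wild-type arrays, with marker shape giving the replicate number and the bar giving mean and SD. Every Vhl knockout array lies above every wild-type array in all 6 genes, with the widest gap, 0.97, in Grem1.

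Vhl knockout replicate 1 was the highest of all arrays in 5 of the 6 genes, and Tgfb2 was the exception. On replicate 2 of the knockout, where the mean of the adipocyte markers lay within the wild-type range, all 6 genes read above every wild-type array. The 6 genes were called with this array included, so its values are not a separate test of them. Set against the 3 wild-type arrays, this array alone gave log2 fold changes of 1.17 for Grem1, 0.95 for Tgfbi, 0.80 for Fstl1, 0.79 for Ccn2, 0.69 for Tgfb1 and 0.69 for Tgfb2, with adjusted p from 0.134 to 0.224. With the adipocyte signal as a covariate on all 6 arrays, the log2 fold changes were 1.17, 0.95, 0.81, 0.73, 0.66 and 0.71 in the same order, and none of the 6 genes passed (adjusted p from 0.0783 to 0.161). That fit called 120 rows of 25206, and the fit with the single knockout array called 8.

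**Figure D3:**
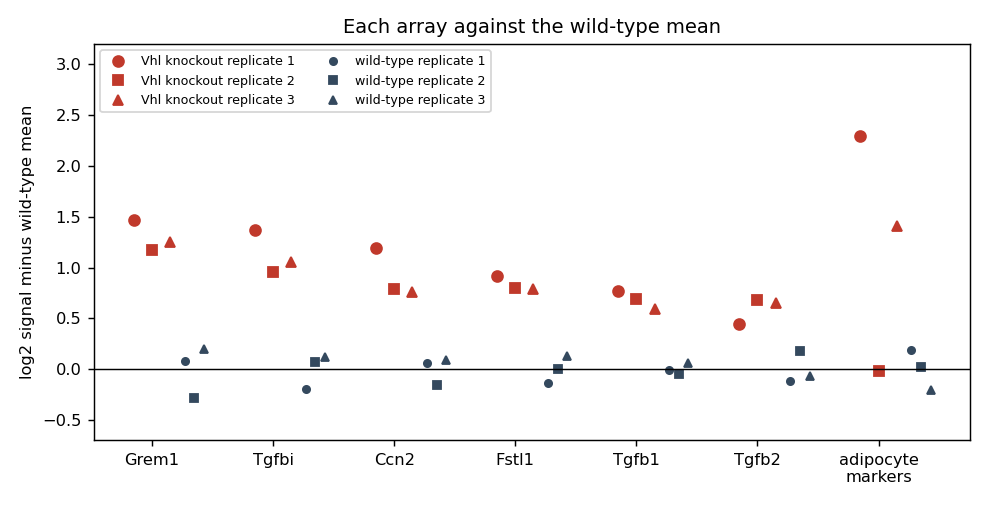
Log2 signal minus the wild-type mean (y axis) on each array, for the 6 genes that rose and for the mean of 8 adipocyte markers, with Vhl knockout arrays in red and wild-type arrays in dark blue. The adipocyte mean is high on knockout replicates 1 and 3 and within the wild-type range on replicate 2. Each of the 6 genes, called with all 3 knockout arrays included, is above the wild-type arrays on all 3.

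Markers of connective tissue and of macrophages moved with these genes. Of all rows 2.24% rose and 0.524% fell. All 12 fibroblast and myofibroblast markers rose, and the mean of their log2 signals was 7.48 to 7.68 in Vhl knockout kidneys and 6.27 to 6.44 in wild-type kidneys. Of 9 macrophage markers 7 rose, with means of 7.14 to 7.24 in Vhl knockout kidneys and 5.89 to 6.16 in wild-type kidneys. Of 10 collecting duct markers 4 fell, with means of 7.59 to 7.68 in Vhl knockout kidneys and 7.97 to 8.06 in wild-type kidneys. The part of these cell types in the rise of the 6 genes was not tested.

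Promoter sequences from RefSeq (GRCm38.p6) were used for 5 of the 6 genes, and that of Ccn2 was not analysed here. Each runs from 250 bases before to 50 bases after the start of the gene. Those of the 2 ligands and of the 2 genes with the largest log2 fold change are shown, since they allow the SMAD boxes and the core of the hypoxia response element to be read beside the expression values. Capitals mark CAGAC (the SMAD3 and SMAD4 box), GGCGCC (the GC-rich SMAD box), ACGTG and GCGTG (the hypoxia core), searched on both strands.
Grem1 promoter, chr2:113758599-113758898, - strand: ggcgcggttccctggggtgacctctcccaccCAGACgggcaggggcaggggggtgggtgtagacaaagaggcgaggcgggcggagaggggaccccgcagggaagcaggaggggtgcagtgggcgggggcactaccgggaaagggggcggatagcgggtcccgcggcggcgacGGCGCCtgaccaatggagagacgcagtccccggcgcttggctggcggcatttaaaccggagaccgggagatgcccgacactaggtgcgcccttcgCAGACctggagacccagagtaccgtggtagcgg
Tgfbi promoter, chr13:56609336-56609635, + strand: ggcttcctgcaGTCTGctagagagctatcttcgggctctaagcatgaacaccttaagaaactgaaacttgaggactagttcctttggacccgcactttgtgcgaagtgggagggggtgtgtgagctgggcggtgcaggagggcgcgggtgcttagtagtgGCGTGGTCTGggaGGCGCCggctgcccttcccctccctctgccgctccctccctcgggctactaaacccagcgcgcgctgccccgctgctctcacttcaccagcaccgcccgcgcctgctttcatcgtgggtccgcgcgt
Tgfb1 promoter, chr7:25686752-25687051, + strand: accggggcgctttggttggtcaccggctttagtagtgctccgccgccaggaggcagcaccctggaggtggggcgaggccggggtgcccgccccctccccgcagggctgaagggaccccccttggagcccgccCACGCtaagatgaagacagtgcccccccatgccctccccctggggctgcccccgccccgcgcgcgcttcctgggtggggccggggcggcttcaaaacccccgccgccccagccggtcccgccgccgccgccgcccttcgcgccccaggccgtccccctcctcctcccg
Tgfb2 promoter, chr1:186705940-186706239, - strand: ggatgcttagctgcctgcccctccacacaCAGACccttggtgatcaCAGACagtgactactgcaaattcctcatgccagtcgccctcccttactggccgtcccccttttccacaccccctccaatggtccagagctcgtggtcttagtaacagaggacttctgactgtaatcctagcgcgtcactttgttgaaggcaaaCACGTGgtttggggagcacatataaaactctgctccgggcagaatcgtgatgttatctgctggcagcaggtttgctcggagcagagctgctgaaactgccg
CAGAC occurred 2 times each in Grem1, Tgfbi and Tgfb2, and 0 times in Tgfb1 and Fstl1. GGCGCC occurred 1 time each in Grem1 and Tgfbi. ACGTG was found in Tgfb2, as the palindrome that holds it on both strands, with first bases at -50 and -51 from the start of the gene. GCGTG occurred 1 time each in Tgfbi, where it directly precedes GTCTG, the reverse complement of CAGAC, and in Tgfb1. Fstl1 held none of the 4 motifs. Of all 32851 promoters of this length, 49.6% held CAGAC, 11.9% GGCGCC, 19.6% ACGTG and 32.4% GCGTG, so each is common, and a match is a description and not a binding site.

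The surrounding pathway was covered with 7 further lists holding 128 measured genes outside the 37, of which 22 (17.2%) rose and 1 fell. Of all rows 2.24% rose and 0.524% fell. Of 19 genes for the release and activation of latent TGF-beta, 6 (31.6%) rose, none fell and 13 did not pass the test (median log2 fold change 0.35). The membrane protease Mmp14 read 7.69, 7.61 and 7.42 in Vhl knockout kidneys and 6.15, 6.39 and 6.32 in wild-type kidneys, a log2 fold change of 1.29 (adjusted p = 0.00253 from limma). The gelatinase Mmp2 had 1.14, the microfibril protein Fbn1 0.98 and Bmp1 0.88, a protease that despite its name is no BMP ligand and that cuts procollagens and Ltbp1. Thrombospondin 1, Thbs1, an activator of latent TGF-beta, and the plasmin-generating protease Plat also rose, with 0.62 (adjusted p = 0.0310) and 0.49 (adjusted p = 0.0364). None of the 5 integrin chains in the list passed. Itgb5, Itgb1 and Itgav had 0.27 (adjusted p = 0.153), 0.23 (adjusted p = 0.142) and 0.14 (adjusted p = 0.419), and Itgb6 and Itgb8 had -0.08 and -0.0036. In Itgb5, Itgb1 and Itgav every knockout array read above every wild-type array. That held in 11 of the 19 genes (57.9%), against 11.2% of all rows. Thbs1, Plat and the integrin chains were named after their values were seen. With 1 array left out, 4 to 5 of the 19 genes passed. With the adipocyte covariate 3 of the 19 genes passed.

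Of 21 other extracellular binding proteins, 4 (19%) rose, against 2.24% of all rows. None fell and 17 did not pass the test, with a median log2 fold change of 0.02. The small proteoglycans Dcn, Aspn and Bgn, which bind TGF-beta, had 1.36 (adjusted p = 0.00403), 0.81 (adjusted p = 0.0191) and 0.76 (adjusted p = 0.0145). Dcn is also among the fibroblast markers. Nbl1, a BMP antagonist related to gremlin, had 0.79 (adjusted p = 0.0460). Nbl1 passed with no array left out, but lost the call without any 1 of them (adjusted p from 0.0628 to 0.130), and only Dcn kept its call without each array in turn. Aspn lost its call without wild-type replicates 1 and 2 and knockout replicates 1 and 2, and Bgn without wild-type replicate 3 and knockout replicates 1 and 3. Of these 4 genes, 1 or 2 passed with 1 array left out, 1 without Vhl knockout replicate 1 and 2 without each of the others. With the adipocyte covariate 1 of the 21 passed, as with the replicate number as a block.

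Other ligands, receptors and intracellular regulators outside the 37 held no gene that passed. Of 22 further ligands the largest differences were in Gdf15, a stress-induced ligand, with 0.91 (adjusted p = 0.10), and in myostatin, Mstn, with -0.44 (adjusted p = 0.125). Gdf15 read 5.25, 6.05 and 6.20 in Vhl knockout kidneys and 4.80, 4.93 and 5.02 in wild-type kidneys, and without Vhl knockout replicate 1 it passed (adjusted p = 0.0094). Among 10 further receptors and co-receptors, Cd109 had 0.54 and endoglin, Eng, 0.37 (adjusted p = 0.163 and 0.125). Among 22 further SMADs and intracellular regulators, the repressor Tgif2 had -0.32 and the ubiquitin ligase Smurf1 0.28 (adjusted p = 0.114 and 0.194), and the median was 0.05.

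Target genes of the TGF-beta and BMP branches are given side by side. Of 23 known targets of TGF-beta and SMAD3, 13 (56.5%) rose, against 2.24% of all rows. None fell and 10 did not pass the test. All 23 had a positive log2 fold change (median 0.70), against 42.7% of all rows. In 20 of the 23 (87%) every knockout array was above every wild-type array, as in 11.2% of all rows. At an unadjusted limma p under 0.05, 18 were higher and none lower, against 8.67% and 8.38% of all rows. The largest log2 fold changes were in the matrix genes Lox, Postn, Fn1 and Col1a1, with 1.96, 1.71, 1.67 and 1.43. Of these 23 genes 6 are also fibroblast markers, and of the other 17, 7 rose. With the adipocyte covariate 6 of the 23 passed. Smad7, Skil and Pmepa1, regulators that TGF-beta induces in many cell types, had -0.15, 0.05 and 0.35, and none of the 3 passed. Skil and Pmepa1 were named after their values were seen.

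Of 14 targets of BMP and SMAD1, none rose, 1 fell and 13 did not pass the test, with a median log2 fold change of 0.01. Of all rows 2.24% rose and 0.524% fell. Id4, an inhibitor of basic helix-loop-helix factors, read 6.71, 6.41 and 6.45 in Vhl knockout kidneys and 7.45, 7.12 and 7.20 in wild-type kidneys, without overlap. It fell by 0.73 on the log2 scale (SE 0.121, limma adjusted p = 0.0256), and lost the call without Vhl knockout replicates 2 and 3 and without each wild-type array (adjusted p from 0.0532 to 0.0891). With the adipocyte covariate Id4 did not pass either (adjusted p = 0.0782). Id1, the BMP target that is used most often as a readout, had -0.33 (95% interval -0.65 to -0.0025, adjusted p = 0.289). Msx2 and Atoh8, transcription factors named after their values were seen, lay on the other side with 0.31 (adjusted p = 0.155) and 0.22 (adjusted p = 0.257). In these 2 of the 14 genes (14.3%) every knockout array was above every wild-type array, as in 11.2% of all rows. In 4 of the 14, Id1, Id2, Id4 and Msx1, every knockout array was below, as in 12.7% of all rows. At an unadjusted p under 0.05, 2 of the 14 were higher and 2 lower, against 8.67% and 8.38% of all rows. A difference between the 2 target lists was not tested.

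**Figure D4:**
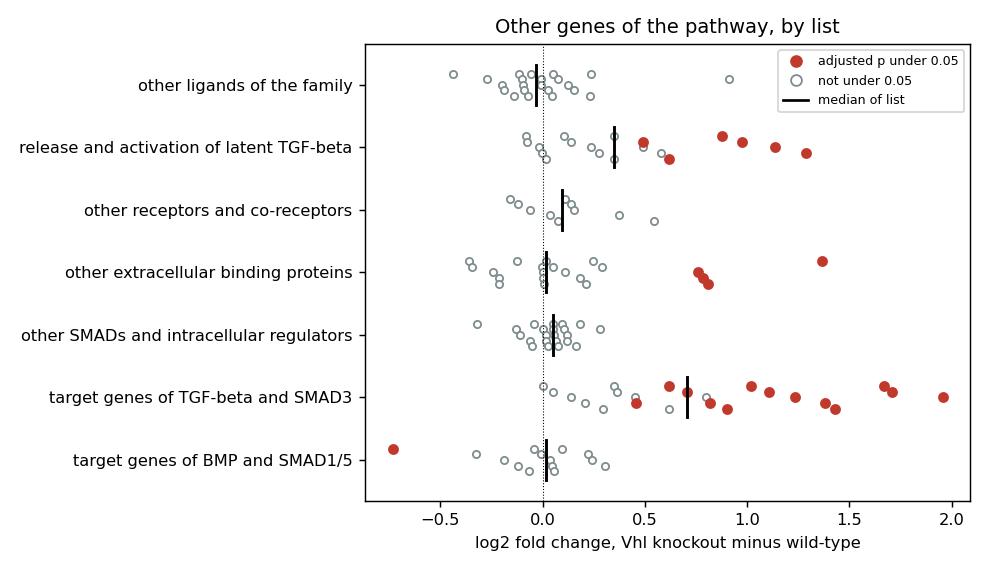
Log2 fold change, Vhl knockout minus wild-type (x axis), of every measured gene in the 7 further lists of the pathway (y axis). Filled red points had an adjusted p under 0.05, open points did not, and black lines mark the median of each list, which is 0.70 for TGF-beta targets and 0.01 for BMP targets.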

How the data were processed

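Values deposited by the authors were log2 signals from RMA, a method of background correction, between-array normalization and probe summary, here with 1 value per Entrez Gene row. For RMA, software and version were not given in the sources used here, nor was a genome build. RMA flattens differences of dim rows. The deposited comparison of the genotypes (moderated statistic, p and q) was not used. There were 0 per-sample columns left unused. Symbols came from the platform annotation, updated by Entrez ID through RefSeq (GRCm38.p6), and 1466 of 25206 rows had none.

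The methods name no test for the arrays. Vhl knockout was compared with wild-type by limma 3.58.1 in R 4.3.3 (lmFit, eBayes, genotype as the single term, prior degrees of freedom 3.27, no filter), taking an adjusted p (Benjamini-Hochberg, all rows) under 0.05. The fit was tested on simulated data. Tables were made with Python 3.11.15 and pandas 2.3.3. Arrays have no read depth, so their number (3 per genotype) limits precision. No source says that each array is a separate mouse, so p-values measure the spread between samples, which may be technical.

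The 37 genes, the lists, the alternatives and the naming rule were chosen with earlier results of these data known. The rule describes genes past the threshold and, for each role, the 2 others with the largest difference. From each further list it names at most 4 called genes or, with too few called, those that differed most. Other named genes were added after their values were seen, and 1 gene of the lists is not reported here by name.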

Additional observations from a re-analysis of the deposited data

How the results depend on the processing

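The rise of 6 genes of the pathway and the fall of none held for the same 6 genes after quantile normalization, with trend and robust eBayes and with array weights. With dim rows left out (not above the array median on 3 arrays) 33 of the 37 genes were tested and Ltbp2 was added, but Ltbp2, Grem1 and Tgfb2 cleared that filter through the 3 knockout arrays alone, so it bears nothing out for them. At thresholds of 0.01 and 0.1 the count was 4 and 9. With 1 array left out it was 4 to 5, and Grem1, Tgfbi, Fstl1 and Tgfb1 passed each time. With the adipocyte covariate it was 0. Knockout replicates 1 and 3 were also both dropped, where the lone knockout array is assumed to vary like the wild-type arrays. The log2 fold changes were then positive in all 6 genes. That was fixed in advance, since in these genes every knockout array read above every wild-type array. The 22 higher and 1 lower genes of the further lists, 23 in all, became 10 with the adipocyte covariate, 0 without knockout replicates 1 and 3, 12 at a threshold of 0.01, and 15 to 18 with 1 array left out. Over all rows, 697 were called, 1101 with dim rows left out, 1094 with trend and robust eBayes, 120 with the adipocyte covariate, 8 without knockout replicates 1 and 3, 183 and 1340 at thresholds of 0.01 and 0.1, and 245 to 409 with 1 array left out. Same-numbered arrays did not deviate together over all rows (correlations of 0.036, 0.073 and -0.10). A correlation over all rows cannot exclude a pairing that touches some genes only. With the replicate block 270 rows and 4 of the 37 genes passed, and Tgfbi and Tgfb2 had an adjusted p of 0.0519 and 0.0614. No called gene named by the rule changed sign. With arrays left out this was fixed in advance, since the genotypes did not overlap in these genes. Of the other genes named by the rule, Smad1 changed sign without knockout replicate 1 and with the adipocyte covariate, and Vhl after quantile normalization (-0.02). The signs of genes named outside the rule were not compared between settings, and those with differences near 0 may change. The cause of the changed counts was not tested.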
